A study of Homo sapiens with 2 samples.

Results

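ETV4 binding was examined at 9 genes that present antigens to, or restrain, cytotoxic T cells, namely HLA-B, HLA-C, HLA-E, B2M, TAP1, TAP2, TAPBP, NLRC5 and CD274. They were listed by name, and every ChIP-seq peak within 10 kb of the span of each gene in RefSeq on GRCh38 was taken, which gave 23 distinct peaks of the 54389 in the list. The 9 genes are part of the 19974 protein-coding genes on chromosomes 1 to 22 and X. The peaks come from 1 anti-Flag immunoprecipitate of A549 cells, an established lung adenocarcinoma line, in which an shRNA lowered ETV4 and transfected Flag-tagged ETV4 replaced it. The comparison library was 1 input from A549 cells, and the labels do not state which of these alterations it carried. It enters only through the fold enrichment and significance values that the peak caller computed, and through the control level solved from them. The bound protein was therefore an introduced, tagged one, and its level relative to the endogenous protein was not analysed here. The Flag antibody is given as a Sigma product in the labels and as a CST product in the methods. There was no replicate, so values carry counting error only and no test between conditions was possible.

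MHC class I molecules display peptides from inside the cell to CD8+ T cells. A heavy chain, encoded by HLA-B, HLA-C or HLA-E among others, pairs with the light chain B2M. The TAP1-TAP2 transporter carries peptides into the endoplasmic reticulum, where tapasin, the product of TAPBP, holds the heavy chain next to it for loading. NLRC5 is the transactivator of these genes, and interferon raises most of them. CD274 encodes PD-L1, the ligand of the inhibitory receptor PD-1 on T cells, and is itself induced by interferon gamma. Tumour cells that lower class I or raise PD-L1 are less visible to T cells. ETV4 is an ETS factor, and ETS factors bind sequences around the core GGAA.

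A peak lay at the start of the transporter, tapasin, light chain and PD-L1 genes, but not at the start of HLA-B or HLA-C. Of the 7 genes with an entry in the RefSeq promoter table, TAP1, TAP2, TAPBP, B2M and CD274 had a peak within 1 kb of the start, which is 5 of 7. Over all 15812 protein-coding genes in that table, 64.5% had one (Wilson 95% confidence interval 63.8% to 65.3%). HLA-E and NLRC5 have no entry and are described by the ends of their spans. Within 10 kb of the span, a peak was found for 8 of the 9 genes, HLA-C being the exception, against 81.9% of all protein-coding genes. With a fold enrichment over 10 required, 6 of the 9 genes kept one within 10 kb against 65.6%, and 3 of the 7 kept one within 1 kb of the start against 47.1%. The shares of the 9 genes were thus close to those of protein-coding genes in general, and what follows describes where the peaks lie and how strong they are.

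The promoter windows of the 5 genes with a peak over the start are shown because the peak covers all or part of each. Each runs from 250 bases before the start to 50 bases after it, 5′ to 3′ on the strand of the gene, from RefSeq on GRCh38.p14. Capitals mark GGAA on either strand, so that TTCC is in capitals as well.
TAP1, chr6:32853655-32853954, minus strand: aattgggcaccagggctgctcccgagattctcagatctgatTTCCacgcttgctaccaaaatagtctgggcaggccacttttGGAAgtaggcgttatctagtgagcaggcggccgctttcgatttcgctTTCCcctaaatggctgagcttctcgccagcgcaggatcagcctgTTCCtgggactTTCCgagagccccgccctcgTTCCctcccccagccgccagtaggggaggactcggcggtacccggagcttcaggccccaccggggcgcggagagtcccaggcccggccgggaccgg
TAP2, chr6:32838690-32838989, minus strand: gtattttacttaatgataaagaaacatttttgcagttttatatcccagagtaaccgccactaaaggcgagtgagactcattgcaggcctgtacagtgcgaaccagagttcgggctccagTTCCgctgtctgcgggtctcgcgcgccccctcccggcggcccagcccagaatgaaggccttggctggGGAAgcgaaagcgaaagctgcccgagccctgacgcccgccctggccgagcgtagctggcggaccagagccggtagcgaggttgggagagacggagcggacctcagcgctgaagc
TAPBP, chr6:33314029-33314328, minus strand: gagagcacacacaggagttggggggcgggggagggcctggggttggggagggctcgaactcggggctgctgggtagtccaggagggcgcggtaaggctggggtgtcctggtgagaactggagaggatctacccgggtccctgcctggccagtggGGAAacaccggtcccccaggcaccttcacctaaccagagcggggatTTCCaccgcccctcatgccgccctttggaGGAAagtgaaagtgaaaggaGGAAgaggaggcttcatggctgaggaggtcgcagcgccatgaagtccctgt
B2M, chr15:44711267-44711566, plus strand: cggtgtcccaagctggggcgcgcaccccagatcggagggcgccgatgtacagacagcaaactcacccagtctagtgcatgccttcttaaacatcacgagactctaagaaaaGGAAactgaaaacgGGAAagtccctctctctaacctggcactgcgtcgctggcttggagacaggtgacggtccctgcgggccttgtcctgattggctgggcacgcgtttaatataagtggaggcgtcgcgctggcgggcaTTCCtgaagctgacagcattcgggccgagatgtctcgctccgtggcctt
CD274, chr9:5450292-5450591, plus strand: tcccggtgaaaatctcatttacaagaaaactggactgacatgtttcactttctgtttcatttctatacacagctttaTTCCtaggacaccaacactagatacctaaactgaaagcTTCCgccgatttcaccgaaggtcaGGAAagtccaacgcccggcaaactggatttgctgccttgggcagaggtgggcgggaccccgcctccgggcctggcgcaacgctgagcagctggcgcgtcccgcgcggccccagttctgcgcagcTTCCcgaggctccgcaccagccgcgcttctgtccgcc

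The windows of HLA-B and HLA-C, which had no peak over them, are shown for comparison, with the same marking.
HLA-B, chr6:31357130-31357429, minus strand: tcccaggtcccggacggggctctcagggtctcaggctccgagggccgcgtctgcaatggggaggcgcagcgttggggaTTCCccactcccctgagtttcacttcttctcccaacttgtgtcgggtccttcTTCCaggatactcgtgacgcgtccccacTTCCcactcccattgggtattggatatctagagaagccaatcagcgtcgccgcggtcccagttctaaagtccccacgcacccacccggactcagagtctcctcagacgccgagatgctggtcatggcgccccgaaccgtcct
HLA-C, chr6:31272043-31272342, minus strand: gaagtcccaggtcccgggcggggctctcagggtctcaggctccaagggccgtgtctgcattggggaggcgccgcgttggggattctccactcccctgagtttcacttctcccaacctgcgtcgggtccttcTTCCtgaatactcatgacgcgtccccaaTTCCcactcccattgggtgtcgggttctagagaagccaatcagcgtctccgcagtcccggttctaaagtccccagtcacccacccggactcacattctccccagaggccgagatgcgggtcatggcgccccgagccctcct

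**Figure D1:**
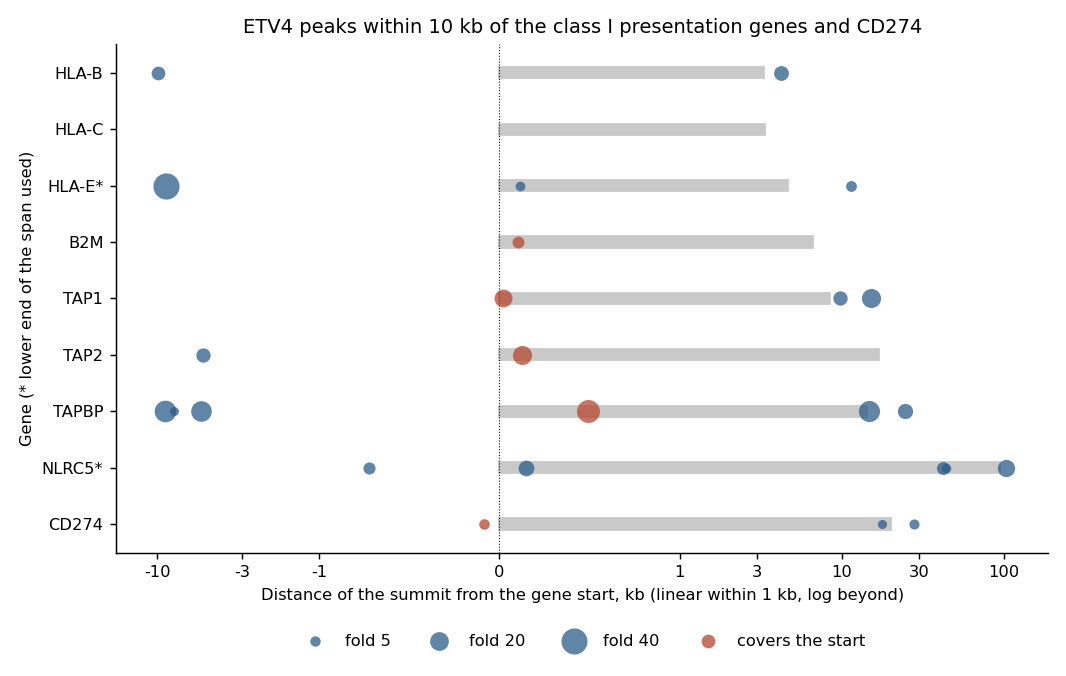
Summits of the peaks within 10 kb of each gene by their distance from the gene start in kb, with downstream to the right, grey bars for the gene spans and the circle area rising with fold enrichment. Red circles are peaks that cover the start, which TAP1, TAP2, TAPBP, B2M and CD274 have, and HLA-C has none.

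The 23 peaks had a median fold enrichment of 11.0, with a lowest of 3.35 and a highest of 40.4. Over the whole list the median was 9.63, and over the 10350 peaks within 1 kb of a protein-coding start it was 16.0. The list was not matched to the 23 peaks for the share that lies at starts. The −log10 q of the 23 peaks, a log-scale false discovery rate from the peak caller, had a median of 23.9 against 19.3 over the list. Their median width was 720 bp against 519 bp. The number of fragments piled up at each summit, recovered from the fold and the p-value, had a median of 29.0 against 26.0. The 23 peaks were thus neither uniformly strong nor weak, and 13 of them had a fold enrichment above the median of the list.

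The strongest peak within 10 kb of each gene ranked as follows among the strongest peaks of all protein-coding genes with a peak, whose median fold enrichment was 22.3. CD274 was at percentile 5.71 and B2M at percentile 11.3. HLA-B was at percentile 25.5, NLRC5 at 37.1, and TAP1 and TAP2, which share their strongest peak, at 46.7. TAPBP at 65.2 and HLA-E at 77.9 were above the median. The strongest peaks of HLA-B, HLA-E and NLRC5 lay outside their spans, and that of TAP1 was the peak at the start of TAP2.

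TAPBP encodes tapasin, and its start had the highest fold enrichment of the 5 starts. On chromosome 6, ETV4 was enriched 30.7-fold between 33313239 and 33314814, with a −log10 q of 117. The summit held 96 fragments, with an exact Poisson 95% confidence interval of 77.8 to 117, where the control level was 2.16. The summit lay 492 bp inside the gene, so that the promoter window printed for TAPBP is within the peak but not at its summit. The peak also reached the end of ZBTB22, a zinc finger gene 340 bp from TAPBP.

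The other end of TAPBP had a peak as well. It ran from 33297760 to 33300099, with a 25.6-fold enrichment and a −log10 q of 163, above that of the start peak. Its summit held 154 fragments (131 to 180) over a control level of 5.06. The summit fell 260 bp past the 3′ end of TAPBP and 492 bp upstream of an annotated start of RGL2, a regulator of Ral GTPase signalling. The remaining 4 peaks within 10 kb of TAPBP overlapped other genes. Those at DAXX, a histone H3.3 chaperone, had fold enrichments of 24.4, 3.35 and 27.1, and the one at the ends of PFDN6 and WDR46 had 12.7. With 6 peaks, TAPBP had the most of the 9 genes, against a median of 2 over all protein-coding genes.

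TAP2 encodes the half-transporter that pairs with the product of TAP1, and the genes lie 6.47 kb apart. Its start was enriched 20.8-fold between 32837980 and 32838941, at a −log10 q of 72.0. At the summit, 125 bp inside the gene, 69 fragments (53.7 to 87.3) stood over a control level of 2.36. The peak covered 252 bases of the 300 in the TAP2 window and included both of its GGAA cores. No other peak overlapped TAP2, and on the side away from TAP1 the next peak was 112 kb from the gene.

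TAP1 and PSMB9, an interferon-induced proteasome subunit, start 488 bp apart and lie head to head, and 1 peak spanned both starts. It ran from 32852645 to 32854524, with an 18.1-fold enrichment and a −log10 q of 59.1. The summit held 60 fragments (45.8 to 77.2) over a control level of 2.36, and was 19 bp inside TAP1 and thus nearer to the start of TAP1 than to that of PSMB9. The remaining peak of this cluster, from 32843638 to 32844594, lay 615 bp below TAP1 and 4899 bp from TAP2. It overlapped the start of PSMB8, the other interferon-induced proteasome subunit here, with its summit 74 bp from that start, and had a fold enrichment of 11.0. TAP1 and TAP2 each have this peak and the TAP2 start peak within 10 kb, so their peaks are not independent of each other.

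B2M on chromosome 15 had a single peak within 10 kb, and it began at the start of the gene. Between 44711510 and 44712215 the enrichment was 7.09-fold, with a −log10 q of 11.7. The summit held 19 fragments (11.4 to 29.7) over a control level of 1.82 and lay 103 bp inside the gene. The peak covered the last 57 of the 300 bases of the B2M window. PATL2, on the opposite strand, has an annotated start 127 bp from B2M, so the genes lie head to head. The peak did not overlap the span of PATL2 but lay within 1 kb of both starts. Its summit was nearer to the start of B2M. The next peak was 10.5 kb from the gene, just outside the 10 kb limit, and the most distant peak just inside it was 9.66 kb from HLA-B.

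CD274 had 3 weak peaks. The start, on chromosome 9, was enriched 5.30-fold between 5450319 and 5450738, at a −log10 q of 10.2. The summit, 84 bp upstream of the start, held 24 fragments (15.4 to 35.7). The control level there was 3.71, higher than at the starts of TAP1, TAP2, TAPBP and B2M. Inside CD274, between 5468037 and 5468283, 7 fragments (2.81 to 14.4) made a 3.50-fold enrichment, and 7640 bp past the 3′ end 10 fragments made a 4.68-fold one. Both of these overlap INCR1, a long noncoding RNA that RefSeq places across the end of CD274.

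The peaks over the 5 starts differed in the number of fragments at the summit. The intervals of B2M and CD274 overlapped each other, and both ended below those of TAP1, TAP2 and TAPBP. The interval of TAP2 overlapped those of TAP1 and TAPBP, whereas that of TAP1 ended at 77.2 and that of TAPBP began at 77.8. Among the 10350 peaks within 1 kb of a protein-coding start, whose median fold enrichment was 16.0, the start peak of CD274 was at percentile 11.7 and that of B2M at 20.6. Those of TAP1, TAP2 and TAPBP were at 55.7, 61.4 and 77.4.

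**Figure D2:**
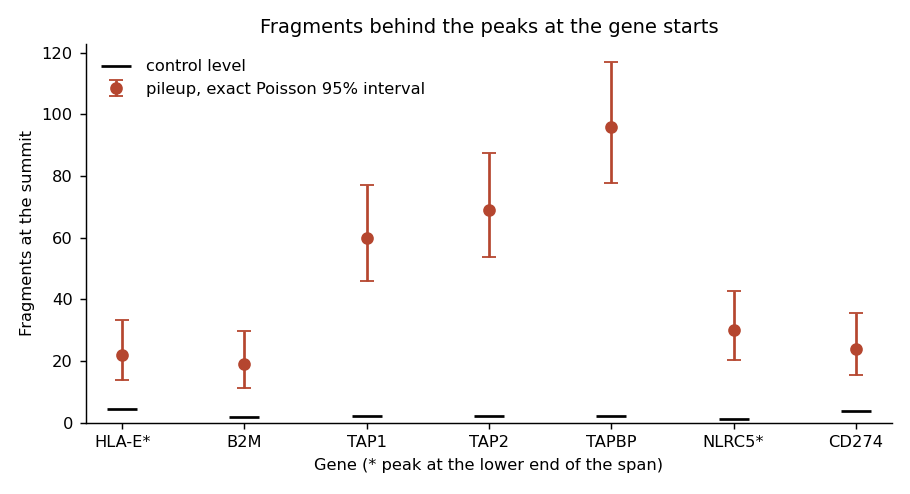
Fragments piled up at the summit (points, with exact Poisson 95% intervals) and the control level there (dashes) for the peaks over the starts of B2M, TAP1, TAP2, TAPBP and CD274 and, marked with an asterisk, the peaks at the lower ends of the spans of HLA-E and NLRC5. TAPBP is highest with 96 fragments, and B2M is lowest with 19.

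NLRC5, the class I transactivator on chromosome 16, had 3 peaks in its span of 93964 bp and 2 outside it. The lower end of the span was enriched 13.6-fold between 56989484 and 56990055. The summit held 30 fragments (20.2 to 42.8) at a control level of 1.28, the lowest of the list and shared by 29.0% of its peaks. The summit lay 149 bp inside the span. This end is the outermost one over all transcripts, so whether it is the start in use in A549 cells was not tested. Further in, an 8.76-fold peak between 57031324 and 57031789 held 19 fragments (11.4 to 29.7), and its 3.94-fold neighbour between 57033611 and 57033874 held 8 fragments.

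The peaks outside NLRC5 lay at other genes. That below it, with a fold enrichment of 7.43, overlapped the noncoding LOC124903696. That above it, with 16.7, was the strongest within 10 kb, and its summit lay 22 bp from the start of CPNE2, a copine gene.

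HLA-E encodes a nonclassical heavy chain that is read by NKG2A on NK cells. It had a weak, 4.27-fold peak at the lower end of its span, between 30489276 and 30490037, with a −log10 q of 7.28. At the summit, 112 bp inside the span, 22 fragments (13.8 to 33.3) stood over a control level of 4.39. The strongest peak of the 23, enriched 40.4-fold, lay 7045 bp below the gene, from 30480284 to 30482464. It held 162 fragments (138 to 189) over a control level of 3.04 and overlapped no RefSeq gene. Another peak, 6424 bp above the gene, had a fold enrichment of 5.62. Restricting the peaks to 1 kb around the span therefore lowers the strongest value for HLA-E from 40.4 to 4.27.

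HLA-B and HLA-C, the classical heavy chains among the 9 genes, had no peak in their spans. At HLA-B the closest peak, between 31352738 and 31353111, was 764 bp past the 3′ end, with an 11.9-fold enrichment and 27 fragments (17.8 to 39.3). Another lay 9656 bp upstream, at the pseudogene DHFRP2, with 9.92 and 29 fragments. At HLA-C the nearest peaks on either side were 27.1 kb and 29.5 kb away.

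The promoter windows of HLA-B and HLA-C, 81.8 kb apart, were identical at 269 of 304 aligned positions (88.5%), as can be seen in the printed sequences. How reads that match several class I genes were treated is not given in the sources used here, and its part in the lack of peaks was not tested. A missing peak is a lack of detection at this depth, since the list holds no values below its threshold and its lowest pileup is 6 fragments.

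**Figure D3:**
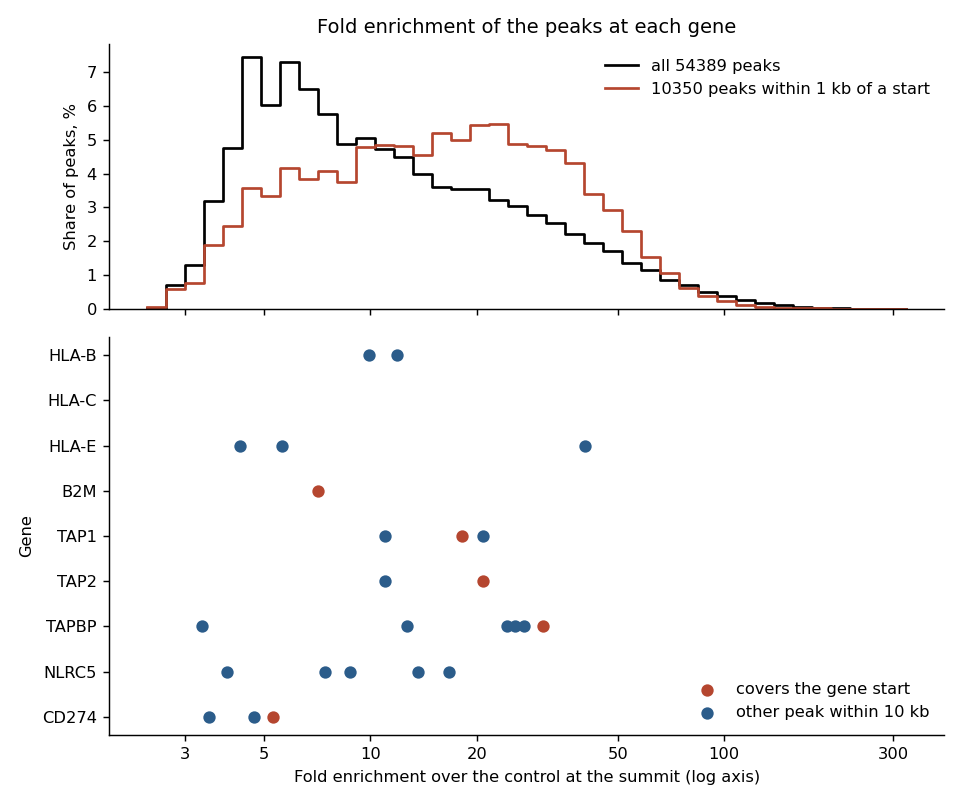
Fold enrichment of each peak within 10 kb of each gene (lower panel, log axis; red, peaks that cover the start of that gene) below the distribution over all peaks and over those within 1 kb of a protein-coding start (upper panel, share of peaks in percent). The start peaks of CD274 and B2M sit at 5.30 and 7.09, and those of TAP1, TAP2 and TAPBP between 18.1 and 30.7.

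Of the 23 peaks, 11 overlapped the span of at least 1 of the 9 genes and 3 of these also overlapped another protein-coding gene. Another 6 overlapped a neighbouring protein-coding gene and no member of the group, and 6 overlapped neither. The 10 kb limit thus brings in promoter peaks of PSMB8, PFDN6 and CPNE2 along with those of the named genes.

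Exact matches to short sequence patterns were counted in the 300-base windows of the 7 genes on both strands. The ETS core GGAA was present in 7 of 7, but it was also in 95.2% of the 21943 distinct promoter windows of protein-coding genes. The longer ETS form CCGGAAG was in none of the 7, and in 12.8% of all windows. It was in 18.3% of the windows within 1 kb of a peak and in 4.23% of the others. TAP1 has a second annotated start, inside the gene and under the same peak, and its window held 1 match, 880 bp from the summit. The AP-1 pattern TGANTCA and the CRE pattern TGACGTCA were in none of the 7 windows, against 6.17% and 2.25% of all windows.

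As a literal string, the interferon-response pattern GAAANNGAA divided the 7 windows in the same way as the peaks did. It was in the windows of TAP1, TAP2, TAPBP, B2M and CD274, 5 of 5 genes with a peak at the start, and in neither HLA-B nor HLA-C. Over all windows, 7.09% held it, and the share was 5.61% of those within 1 kb of a peak and 9.37% of the others. TAP1, TAPBP, B2M and CD274 each held 2 matches that overlap, and thus not 2 separate sites. Of all windows, 0.611% held 2 or more matches, whether overlapping or apart. These are letter matches and not measured binding of interferon-regulated factors. An absent match says only that these letters are not in the window. The HLA-B and HLA-C windows both hold the similar GAAGTGAAA, printed as tttcacttc, in which GAAA follows the spacer. That form was not among the patterns counted, so the split does not show that these windows lack interferon-response sequences. The windows of HLA-B and HLA-C were identical at 88.5% of aligned positions, so these 2 windows are not independent of each other.

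The interferon pattern did not mark the summits. In TAP1 its 2 matches were centred 142 and 148 bp from the summit, in TAP2 179 bp, in CD274 113 and 119 bp and in TAPBP 502 and 508 bp. In B2M both matches, 130 to 144 bases before the start, lay outside the peak. Among those windows that hold a summit, the nearest GGAA core was 25.5 bp away in CD274 and 63.5 bp away in TAP1. The other interferon pattern, TTCNNNGAA, was found in the CD274 window alone among the 7, centred 37.0 bp from the summit, against 6.82% of all windows. The window of the second annotated TAP1 start held 1 match too, 739 bp from the summit. A 10-base NF-kB pattern, GGGA and CC with 4 bases between them, was in 6 of 7 windows, all but that of TAP2, against 29.1% of all windows.

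The pathway was described from fixed lists of genes by role, and the 9 genes are themselves in these lists. Among 5 class I heavy chains, 4 had a peak within 10 kb, against 81.9% of all protein-coding genes. HLA-C had none, and HLA-F had the strongest, with a fold enrichment of 48.6 in a peak 9.29 kb outside its span. At their starts, 1 of the 4 heavy chain genes in the promoter table had a peak, that of HLA-F, with a fold enrichment of 5.29, and HLA-B, HLA-C and HLA-G had none. HLA-E has no entry there and was not counted, though a 4.27-fold peak lay at the lower end of its span. In the peptide-loading list, 7 of 7 genes had a peak within 10 kb, against 81.9%. At the start, 6 of 6 had one, against 64.5%, and TAP1, TAP2 and TAPBP, described above, are among these. TAPBP was the strongest, and the calreticulin gene CALR, a chaperone of the loading complex, had 25.2 at its start.

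Of the genes that supply peptides, 6 of 7 had a peak within 10 kb, against 81.9% of all protein-coding genes. At the start, 5 of 7 had one, against 64.5%, and that of PSMB9 is the TAP1 start peak counted again. The strongest was at ERAP1, the aminopeptidase that trims peptides in the endoplasmic reticulum, with 37.9, and PSMB10 had no peak. Of the class I regulators, 14 of 14 had a peak within 10 kb and 10 of 10 had one at the start, against the same shares. The strongest was at JAK1, a kinase of the interferon receptors, with a fold enrichment of 64.7. The start of IRF1, a transcription factor that interferon gamma induces, had 35.6. Across these roles the heavy chain starts were below the 64.5% of all protein-coding starts and the loading and regulator starts above it. The lists are short and their genes were chosen by role, so no test was made of these differences.

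**Figure D4:**
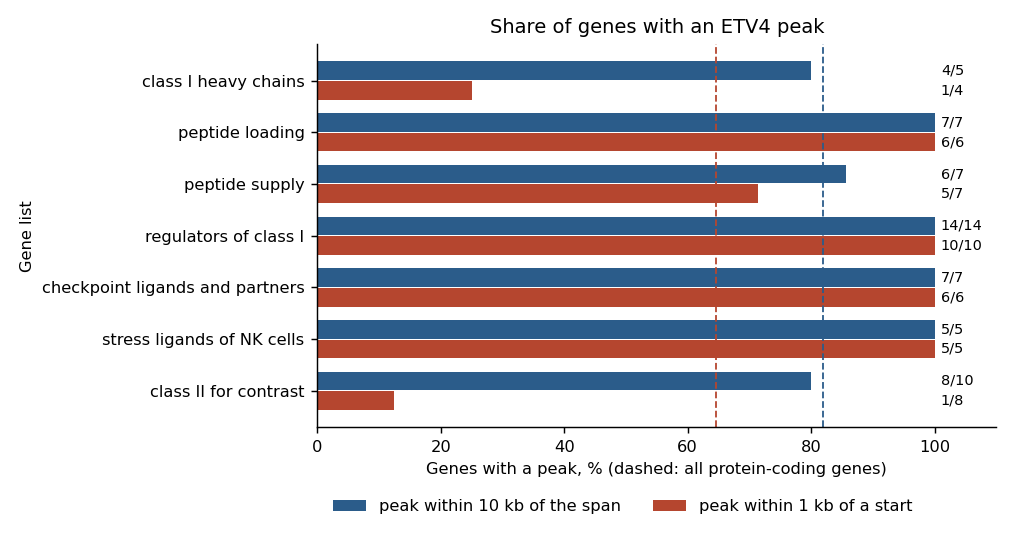
Percent of the genes of each list with a peak within 10 kb of the span (blue) and within 1 kb of the start (red), with the counts at the right and the shares over all protein-coding genes as dashed lines (81.9% and 64.5%). Start peaks were found at 1 of 4 heavy chain genes and 6 of 6 peptide-loading genes.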

How the data were processed

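The authors deposited 1 peak list in narrowPeak layout, called on a single immunoprecipitate. For each interval the authors deposited the ratio of immunoprecipitate to control at the summit (fold), with its −log10 p and −log10 q from the peak caller. The authors' display score was not used. The submitters' processing notes name Bowtie2 2.4.1, SAMtools, MACS2 2.2.7.1, deepTools 3.5.0 and hg38, without parameters. The lowest −log10 q was 1.30. Input signal of its own was not analysed here.

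Positions are 1-based. Spans came from RefSeq on GRCh38.p14, and starts and sequences from its promoter table, which has no entry for HLA-E and NLRC5. Pileup and control level at each summit were solved from fold and p, with a pseudocount of 1 and a Poisson upper tail, and 100% of the pileups were within 0.01 of a whole number. The solver and the overlap counts were tested on simulated data. Intervals are exact Poisson for pileups and Wilson for shares, at 95%, and cover counting error only. Members, lists and sequence patterns were chosen with earlier results of these data known. Besides the members, the genes named are the one with the highest fold in each list, every gene without a peak, and genes that share or adjoin a peak. CMTM6, and HLA-F, HLA-G, HLA-DPA1, CALR, IRF1, MICA, MICB, ULBP1 and ULBP3 at their starts, were named after their values were seen, as was the pairing of interferon patterns. A gene of the fixed lists is not reported here. Alternatives covered window sizes, summits, and stricter fold and q. The computations ran in Python 3.11.15 with scipy 1.17.1.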

Additional observations from a re-analysis of the deposited data

How the results depend on the processing

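The count of genes with a peak within 10 kb was 8 of 9 with windows of 1, 5 and 20 kb, where the share of all protein-coding genes was 74.5%, 78.6% and 86.3%. It was also 8 with summits in place of intervals (81.7%), a fold over 5 (78.2%) or a −log10 q over 10 (74.2%), HLA-C being without a peak each time. It was 6 with a fold over 10 (65.6%), where B2M and CD274 also dropped. The count of starts with a peak was 5 of 7 with windows of 250 bp, 500 bp and 3 kb, for which no share of all genes is given here. It was 3 with a fold over 10 within 1 kb, against 47.1% of all protein-coding genes. The median of the strongest folds was 18.7, and 12.7 within 1 kb of the spans. Ranked by −log10 q, the strongest peak of TAPBP was the 25.6-fold one near the RGL2 start. The background share of 81.9% was 55.8% over all RefSeq genes and 82.8% over protein-coding genes of the members' lengths. It was 86.5% on chromosome 6, which was chosen after seeing the data. Of the 56 genes of the pathway lists, which include the 9 genes, 52 had a peak within 10 kb, against 81.9% of all protein-coding genes. The count ranged from 41 with a fold over 10 (65.6%) to 55 within 20 kb (86.3%). No paired analysis was possible because there is 1 library per condition and no test. With 1 library, the intervals cover counting error only. No difference between peaks, with overlapping intervals or not, could be set against variation between replicates.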

Other observations

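MICA, MICB, ULBP1, ULBP2 and ULBP3 encode ligands that activate NK cells through NKG2D. Of these genes, 5 of 5 had a peak within 10 kb and 5 of 5 had one within 1 kb of the start, against 81.9% and 64.5% of all protein-coding genes. The median of their strongest fold enrichments was 48.6, against 22.3 over all protein-coding genes with a peak. The highest was near ULBP1, 151, with 659 fragments at the summit, but this peak lay outside the span and the one at the start of ULBP1 had 7.77. The strongest peaks of ULBP3 and MICB lay outside their spans as well, and at the starts these genes had 33.6 and 18.4. The start of MICA, with 40.7, had the strongest peak of that gene. In the list of checkpoint ligands and partners, 7 of 7 genes had a peak within 10 kb and 6 of 6 had one at the start, against the same shares of all genes. The strongest was at NECTIN2, a ligand of TIGIT, with 46.4 at its start, and CD274 had the lowest of the 7, 5.30. The start of CMTM6, which stabilises PD-L1 at the cell surface, had 22.1.

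MHC class II genes, which present peptides to CD4+ T cells, had 1 of 8 starts with a peak, against 64.5% of all protein-coding genes, and it was that of HLA-DPA1, with a fold enrichment of 7.33. Within 10 kb, 8 of 10 had a peak against 81.9%, HLA-DRB1 and HLA-DQB1 being the exceptions, and the strongest was at HLA-DQA1, 24.0. The HLA genes of this list are on chromosome 6 and HLA-DPA1 and HLA-DPB1 have the same strongest peak, so they are not independent of each other.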
